A study of Mus musculus with 4 samples.

Results

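Genes of mucin O-glycosylation (St6galnac1, Galnt12, Galnt3, Galnt7, C1galt1, C1galt1c1, Gcnt3 and B3gnt6) were followed in sorted cells of mouse duodenal crypts with and without floxed Apc alleles. They are 8 of the 31053 genes in the files and were matched by symbol. St6galnac1 was chosen because it differed between the genotypes, so its genotype values are a description and carry no test. The other 7 were chosen as enzymes of the same pathway, and their genotype differences were read from fits over all genes.

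Cells carrying the red reporter TOM were sorted from crypts of the duodenum and made into 10x 3' v3.1 libraries, 2 per genotype. WT libraries came from Atoh1CreER-T2;R26RTom mice. APC-KO libraries came from mice whose genotype is given per sample as Atoh1Cre;Apcfl/fl;R26RTom and in the study's design as Atoh1CreER-T2 with Apc fl/fl and R26RTom. All mice received 2 tamoxifen doses of 1 mg/mL 24 h apart, and cells were taken 12 h after the last. The Atoh1 driver is active in secretory progenitors, so the reporter marks those cells and what descends from them. Age, sex, animal and batch were not given, so p-values measure only the spread between libraries, which may be technical.

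The deposited per-cell tables kept 4814 and 3821 cells of WT replicates 1 and 2 and 356 and 6243 cells of APC-KO replicates 1 and 2, under 12 cell type names that are printed as deposited. APC-KO replicate 1 stood apart: 5.15% of its UMIs lay in kept cells, against 37.6% to 50.3% in the other libraries, and only EC, GOBLET and GOBLET-PRE reached 20 cells in it. Libraries shared between 1 and 8 cell barcodes per pair. The summed marker genes of EC, NON-EC, EEC-PRE, GOBLET, PANETH, TUFT and ISC, and enterocyte markers in ENTERO-PRO, were highest in the type of that name in all 4 libraries. The 3 SEC-PRO markers were highest in SEC-PRO in the WT libraries and in GP in the APC-KO libraries. In WT replicate 1 the values were nearly equal (415.8 CPM in SEC-PRO and 415.2 CPM in GP). APC-KO replicate 1 had 5 SEC-PRO and 7 GP cells. Apc, the targeted gene, had 87.2 and 77.9 CPM (UMIs of a gene per 1000000 UMIs of the same cells) in kept cells of WT replicates 1 and 2, and 88.1 and 88.1 CPM in APC-KO replicates 1 and 2. Counts at the 3' end need not cover a floxed exon, so these values do not check the deletion.

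O-glycosylation of mucins starts in the Golgi when a polypeptide GalNAc transferase (the Galnt family) adds N-acetylgalactosamine to a serine or threonine. The sugar is then extended to a core: C1GALT1, which needs the chaperone C1GALT1C1 (Cosmc), adds galactose to make core 1, and B3GNT6 adds N-acetylglucosamine to make core 3. GCNT3 branches these to cores 2 and 4, and ST6GALNAC1 caps the first sugar with sialic acid. In the intestine this dense glycan coat on MUC2, made mainly by goblet cells, gives mucus its water-holding and barrier properties.

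The start-site windows of the 3 members in the RefSeq promoter table (GRCm38.p6, 250 bases before to 50 after the start) are shown. They are Galnt3, Galnt7 and C1galt1. The other members had no entry, so the choice did not rest on expression. Capitals mark a match to CAGCTG or CAGATG on either strand, 2 E-boxes (sites of basic helix-loop-helix factors, the family of ATOH1) that cannot overlap each other. The windows are chr2:66124744-66125043 on the minus strand, chr8:57653006-57653305 on the minus strand and chr6:7844974-7845273 on the plus strand.
Galnt3: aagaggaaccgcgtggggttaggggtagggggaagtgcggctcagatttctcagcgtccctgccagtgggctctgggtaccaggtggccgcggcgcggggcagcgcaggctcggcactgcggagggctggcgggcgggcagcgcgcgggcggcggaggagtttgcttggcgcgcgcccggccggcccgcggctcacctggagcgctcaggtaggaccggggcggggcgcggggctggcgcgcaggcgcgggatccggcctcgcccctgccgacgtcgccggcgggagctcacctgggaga
Galnt7: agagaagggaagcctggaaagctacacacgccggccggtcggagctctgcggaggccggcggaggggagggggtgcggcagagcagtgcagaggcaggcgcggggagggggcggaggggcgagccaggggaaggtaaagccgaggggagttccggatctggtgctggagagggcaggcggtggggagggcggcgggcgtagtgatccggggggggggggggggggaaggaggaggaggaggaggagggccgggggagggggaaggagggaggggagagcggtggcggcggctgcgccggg
C1galt1: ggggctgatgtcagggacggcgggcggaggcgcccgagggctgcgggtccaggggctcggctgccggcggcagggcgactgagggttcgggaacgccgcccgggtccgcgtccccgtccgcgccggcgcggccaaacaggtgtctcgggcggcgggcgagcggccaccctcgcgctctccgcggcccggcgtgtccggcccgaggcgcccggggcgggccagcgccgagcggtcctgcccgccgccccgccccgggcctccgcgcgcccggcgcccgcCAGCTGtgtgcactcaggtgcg
C1galt1 held 1 match and the other windows held none. Of 32851 promoter windows of this length, 30.6% held at least 1 of the motifs. A match is a description of these letters and not a site.

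In WT cells 5 of the 6 well-detected members were higher in GOBLET-PRE, GP, GOBLET, SEC-PRO and PANETH-PRE than in the other 7 types. The exception was C1galt1, which was also high in EC and NON-EC. The summed level of the 6 was 2055 and 2163 CPM in GOBLET-PRE of WT replicates 1 and 2, 2104 and 2114 CPM in GP, and 1514 and 1450 CPM in GOBLET. SEC-PRO had 1523 and 1617 CPM and PANETH-PRE 1547 and 1659 CPM. The other 7 types ranged from 245 CPM in ISC to 625 CPM in EC. After each cell was thinned to 2000 UMIs, a GOBLET-PRE cell held UMIs of 2.82 and 2.88 of the 6 members on average in WT replicates 1 and 2, and a TUFT cell of 0.460 and 0.538. A cell with none of them made up 1.82% and 1.61% of GOBLET-PRE and 63.8% and 58.8% of TUFT. Cell types were named from these same cells, so differences between types are given without a test.

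**Figure D1:**
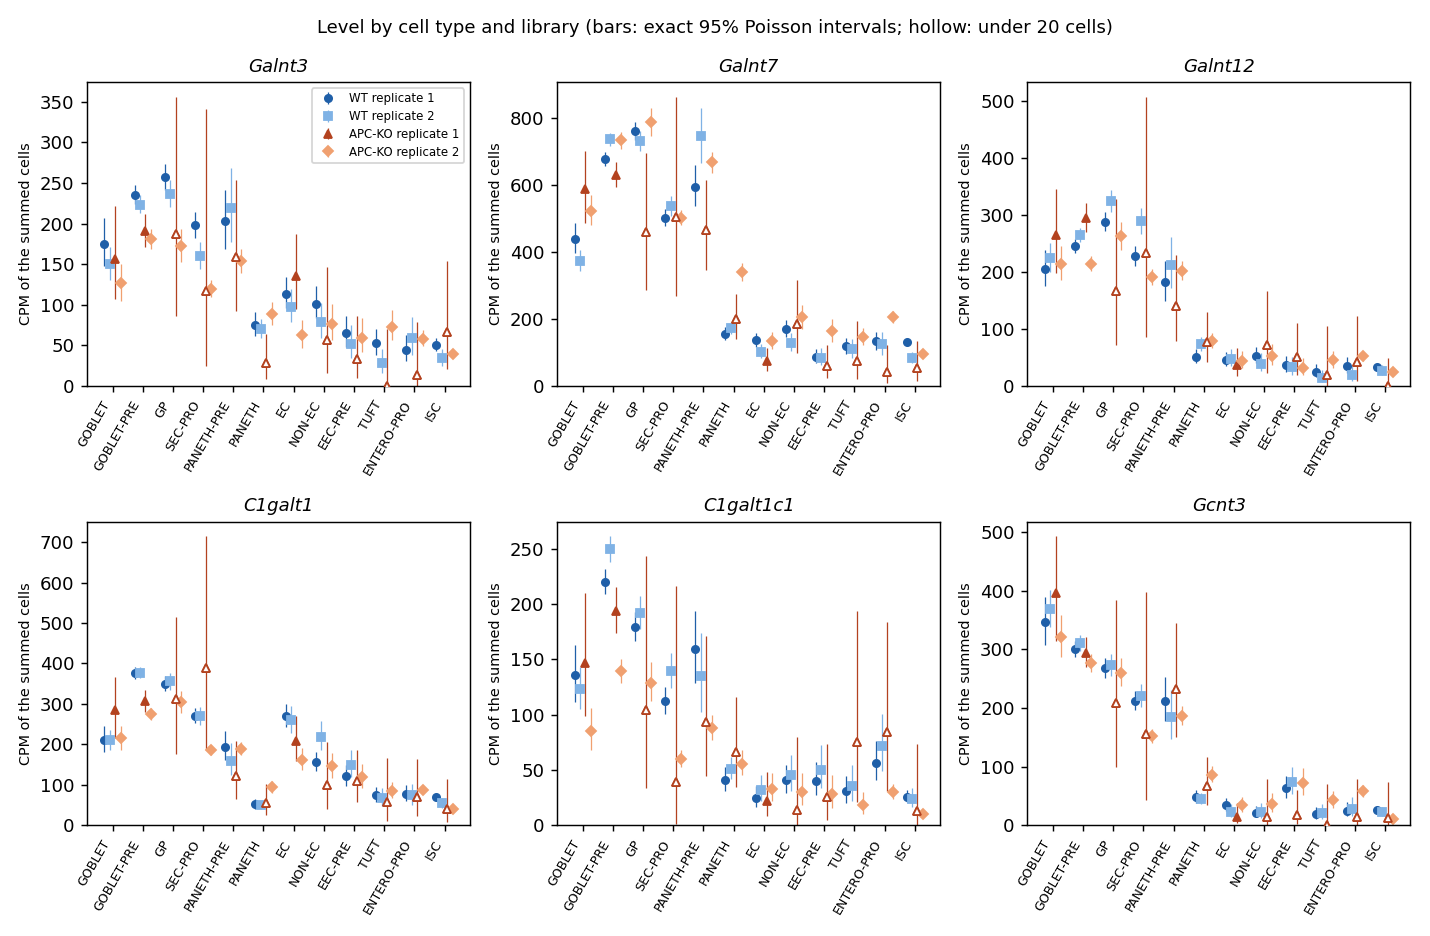
Level of 6 members (CPM of the summed cells, linear axes from 0) in the 12 cell types, 1 point per library with its exact 95% Poisson interval, hollow where the type had under 20 cells. In WT, GOBLET-PRE, GOBLET, GP, SEC-PRO and PANETH-PRE stand above the other 7 types for 5 of the 6 members. C1galt1 differs, with EC (271 and 261 CPM in WT) above GOBLET (212 and 210 CPM).

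Galnt7 (chr8:57523828-57653032, minus strand), a transferase that acts mainly on peptides already carrying GalNAc, had 678 and 737 CPM in GOBLET-PRE of WT replicates 1 and 2. It had 761 and 732 CPM in GP and 596 and 746 CPM in PANETH-PRE, 3 types whose WT values overlapped. SEC-PRO followed with 503 and 537 CPM and GOBLET with 440 and 374 CPM, each below its upper neighbour without overlap. In the other 7 types Galnt7 lay between 83.7 and 173 CPM. A UMI of Galnt7 was found in 91.7% and 93.3% of goblet-lineage cells (GOBLET and GOBLET-PRE together) of the WT libraries, and in 28.9% and 29.3% of EC cells. Thinned to 2000 UMIs, these shares were 70.7% and 72.4% of the goblet lineage and 20.7% and 20.2% of EC. Predicted genes (5 of them) overlap Galnt7 on its strand and others lie opposite, so its counts may include theirs.

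Galnt12 (chr4:47091909-47123070, plus strand) had its highest WT level in GP, 288 and 325 CPM. SEC-PRO had 228 and 290 CPM and GOBLET-PRE 246 and 265 CPM, and these WT ranges overlapped. GOBLET had 205 and 224 CPM, below GOBLET-PRE, and PANETH-PRE had 182 and 213 CPM. From PANETH (51.5 and 73.0 CPM) downward the level stayed low, to 25.0 and 14.1 CPM in TUFT. Between those 5 types and the other 7 the WT values left a gap from 182 down to 73.0 CPM. A predicted gene overlaps Galnt12 on its strand, so its counts may include reads of that gene.

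Galnt3 (chr2:66082766-66124994, minus strand), which initiates glycans and is also known for glycosylating FGF23, had 257 and 237 CPM in GP, 235 and 223 CPM in GOBLET-PRE and 203 and 220 CPM in PANETH-PRE of WT. These 3 ranges did not overlap. GOBLET had 175 and 150 CPM. In EC Galnt3 kept a larger part of its GOBLET-PRE level than the other initiating members: EC had 113 and 97.2 CPM, which was 48.2% and 43.5% of GOBLET-PRE in the same libraries, against 18.5% and 18.1% for Galnt12 and 20.2% and 13.9% for Galnt7, whose EC levels were below those of free RNA. TUFT had the lowest WT mean, from 52.3 and 28.3 CPM, its range overlapping those of ISC and ENTERO-PRO. In WT replicate 1 ENTERO-PRO (19.0% of GOBLET-PRE) and ISC (21.6%) were below TUFT (22.3%).

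C1galt1 (chr6:7844842-7875687, plus strand), the core 1 galactosyltransferase, and C1galt1c1 (chrX:38630785-38635087, minus strand), the chaperone it needs, both peaked in GOBLET-PRE of WT. There C1galt1 had 376 and 377 CPM and C1galt1c1 220 and 250 CPM. Their levels relative to GOBLET-PRE parted in EC, a type whose marker list includes Tac1 and Tph1, genes of serotonin-making enterochromaffin cells. C1galt1 had 271 and 261 CPM in EC, 71.9% and 69.1% of GOBLET-PRE, while C1galt1c1 had 24.8 and 32.1 CPM, 11.3% and 12.8% of GOBLET-PRE. C1galt1 in NON-EC was 156 and 220 CPM, or 41.5% and 58.2% of GOBLET-PRE, against 18.5% and 18.1% for C1galt1c1. In the APC-KO libraries EC again held more of the enzyme than of the chaperone relative to GOBLET-PRE: 68.1% and 58.8% for C1galt1, 11.3% and 23.7% for C1galt1c1. A model gene overlaps C1galt1 on the same strand, and another lies opposite.

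Gcnt3 (chr9:70031496-70038088, minus strand), the mucin-type branching enzyme, was the only one of the 6 with its highest WT level in GOBLET. It had 346 and 369 CPM there, 300 and 311 CPM in GOBLET-PRE and 268 and 273 CPM in GP, with no overlap. In GOBLET it stood at 115% and 119% of GOBLET-PRE, while the other 5 members stood between 49.4% and 84.6%. The goblet marker list itself took 414011 and 451397 CPM in GOBLET and 188517 and 166055 CPM in GOBLET-PRE of the WT libraries, and its part in these CPM was not tested. NON-EC (21.8 and 23.3 CPM), TUFT (19.3 and 21.2 CPM), ISC (25.7 and 22.7 CPM) and EC (34.3 and 23.5 CPM) were low.

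B3gnt6 (chr7:98192417-98199481, minus strand), the core 3 synthase, was almost undetected. Its UMIs in kept cells numbered 5, 6, 1 and 4 in WT replicates 1 and 2, then APC-KO replicates 1 and 2, each in a different cell, or 16 of 15234 cells in all. The whole files held 38. GOBLET had none in any library, and GOBLET-PRE had 1 and 3 in the WT libraries and 0 and 0 in the APC-KO libraries. At this depth no level by type or genotype could be shown, and B3gnt6 passed the filter of none of the 6 fits.

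The level in barcodes with 1 to 50 UMIs that were not kept as cells was taken as that of free RNA. Whether these barcodes hold only free RNA was not tested. In WT replicates 1 and 2 these barcodes held Galnt7 at 268 and 252 CPM, Galnt12 at 132 and 133, Galnt3 at 105 and 80.9, C1galt1 at 156 and 141, C1galt1c1 at 78.6 and 94.95 and Gcnt3 at 91.2 and 111 CPM. All 6 members in PANETH, TUFT, ISC and ENTERO-PRO were below these values in both libraries, as were Galnt7, Galnt12, C1galt1c1 and Gcnt3 in EC, NON-EC and EEC-PRE. A level below that of free RNA does not show how much of it is free RNA. That part was not tested, and these levels are not read as expression here. C1galt1 and Galnt3 in EC were above their free-RNA levels in both WT libraries. Galnt3 in EC still lay within the 95% Poisson intervals of its free-RNA level (86.6 to 126 and 66.4 to 97.5 CPM). C1galt1 in NON-EC of WT replicate 1 lay within that of its own (134 to 181 CPM).

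PANETH, below the free-RNA level for all 6 members, was also below PANETH-PRE for each of them in both WT libraries. Galnt7 had 155 and 173 CPM in PANETH against 596 and 746 CPM in PANETH-PRE, and Gcnt3 48.1 and 44.5 against 213 and 185 CPM. The Paneth marker list took 537950 and 542376 CPM in PANETH and 132501 and 114107 CPM in PANETH-PRE, and its part in the lower CPM was not tested.

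Across the 39 sums of a cell type and library with at least 20 cells, Pearson's r of log2(CPM + 1) was 0.95 between Galnt12 and Galnt7, 0.93 between Galnt12 and Gcnt3 and 0.91 between Galnt12 and Galnt3. C1galt1 was the least like the rest, with r from 0.67 with Galnt7 to 0.85 with Galnt3, and 0.70 with its chaperone. St6galnac1 had r between 0.04 and 0.30 with these 6. The sums share libraries, and 5930 other genes were compared. The genes most like Galnt7 were Ern2, an endoplasmic reticulum stress sensor of mucous epithelia (r = 0.95), Spdef, the goblet cell transcription factor (0.95), and Liph (0.95). Those most like Galnt12 were Cracr2b (0.96), Liph (0.93) and Agr2, the disulfide isomerase for MUC2 (0.93). C1galt1c1 was most like Smim14 (0.96), Slc12a8 (0.95) and Agr2 (0.93), and Gcnt3 most like Slc12a8 (0.95), Rep15 (0.95) and Wars (0.94). Galnt3 went with Tspan13 (0.93), Tmem248 (0.91) and Mia3 (0.91), and C1galt1 with Stard10 (0.93), Gcc2 (0.91) and Zc3h7a (0.89). St6galnac1 was most like Fabp6, the ileal bile acid binding protein (0.76), Ndufa3 (0.67) and Sec61g (0.66). The sums hold both genotypes, and WT kept cells held 3 UMIs of St6galnac1. All its r values thus mix the genotype difference it was chosen for with differences between cell types. For B3gnt6 no gene was above 0.42, reached by Igsf23, with Pcmtd1 at 0.40 and Ergic2 at 0.38.

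St6galnac1 (chr11:116765025-116775507, minus strand), the sialyltransferase, was close to absent in WT and detected in most cell types of APC-KO. Kept cells held 2 and 1 UMIs of it in WT replicates 1 and 2 and 35 and 240 in APC-KO replicates 1 and 2, which is 0.0810, 0.0476, 11.6 and 8.80 CPM. Both APC-KO libraries were above both WT libraries. A UMI was found in 3 of 8635 WT cells, and in 24 of 356 and 205 of 6243 APC-KO cells. Over all kept cells the pooled ratio was 138 (95% counting interval 46.8 to 674), which rests on 3 WT UMIs. Intervals and limits here cover counting error only.

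In the goblet lineage St6galnac1 had 1 and 1 UMIs in WT (0.134 and 0.119 CPM) and 20 and 62 in APC-KO (10.1 and 11.3 CPM), a pooled ratio of 86.8 (95% counting interval 23.3 to 728). Its fitted log2 fold change was 6.28 and depends on the prior count. Without APC-KO replicate 1 it was 6.35, with the lone APC-KO library assumed to vary like the WT libraries. The share of goblet-lineage cells with a UMI was 0.0693% and 0.0659% in WT replicates 1 and 2, and 6.60% and 4.04% in APC-KO replicates 1 and 2. Thinned to 2000 UMIs per cell, it was 0%, 0%, 1.91% and 1.59%. The fit called 2 of 10445 genes (0.0191%), St6galnac1 and Rab3b. St6galnac1 was chosen from this contrast, so nothing is read from its call. Rab3b, a vesicle-trafficking GTPase, lies outside the naming rule and is named after its values were seen.

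**Figure D2:**
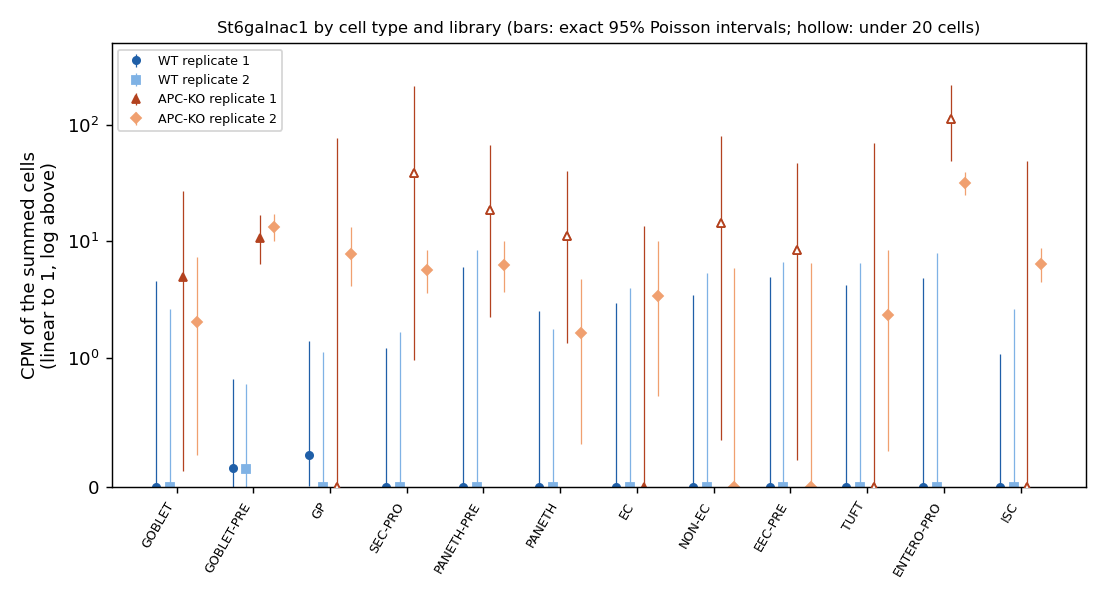
St6galnac1 (CPM of the summed cells; axis linear to 1 and logarithmic above) in the 12 cell types, 1 point per library with its exact 95% Poisson interval, hollow where the type had under 20 cells. ENTERO-PRO is highest in both APC-KO libraries (112 and 31.5 CPM), and the WT points are at 0 except in GOBLET-PRE and GP.

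Goblet cells were not where St6galnac1 was highest. In APC-KO replicate 2 ENTERO-PRO had 31.5 CPM (79 UMIs in 59 of 468 cells), GOBLET-PRE 13.3 CPM (60 UMIs), GP 7.73 CPM, ISC 6.35 CPM, PANETH-PRE 6.25 CPM, SEC-PRO 5.62 CPM and GOBLET 2.04 CPM (2 UMIs). EC had 3.42 CPM, TUFT 2.32 CPM and PANETH 1.63 CPM, on 2 or 3 UMIs each, and NON-EC and EEC-PRE had none. The Poisson interval of ENTERO-PRO did not overlap that of any other type in this library. ENTERO-PRO held 32.9% of its St6galnac1 UMIs and 9.20% of all its UMIs.

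In APC-KO replicate 1 ENTERO-PRO was also first, on few cells, with 112 CPM (8 UMIs in 3 of 11 cells). SEC-PRO (38.9 CPM), PANETH-PRE (18.7 CPM), NON-EC (14.3 CPM) and PANETH (11.1 CPM) followed on 1 or 2 UMIs each. GOBLET-PRE had 10.7 CPM (19 UMIs in 184 cells), EEC-PRE 8.41 CPM and GOBLET 4.90 CPM, the last pair on 1 UMI each, and GP, ISC, EC and TUFT had none. WT ENTERO-PRO had no UMI in either library, so the pooled ratio of APC-KO over WT has only a lower limit. The lower end of its counting interval was 10.9 in ENTERO-PRO, 7.83 in ISC and 7.70 in SEC-PRO. In the Paneth lineage (PANETH and PANETH-PRE together, 4 and 20 UMIs in APC-KO replicates 1 and 2) it was 5.70. The ISC UMIs (38) all came from APC-KO replicate 2. In that library ISC, SEC-PRO, PANETH and PANETH-PRE were all below the free-RNA level (7.63 CPM). Only GOBLET-PRE and GP had a UMI in WT, so APC-KO could not be lower in any other type. Enterocyte markers summed to between 9799 and 10979 CPM in WT ENTERO-PRO and between 9127 and 20524 CPM in APC-KO ENTERO-PRO, with the higher value in APC-KO replicate 1. Their part in the level of St6galnac1 was not tested.

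St6galnac1 was also found outside the kept cells in the APC-KO libraries. Barcodes of 1 to 50 UMIs held it at 19.8 CPM in APC-KO replicate 1, above its 11.6 CPM in kept cells and its 10.7 CPM in GOBLET-PRE. In APC-KO replicate 2 they held it at 7.63 CPM, with 8.80 CPM in kept cells. Among types with at least 20 cells, ENTERO-PRO, GOBLET-PRE and GP in APC-KO replicate 2 were above the free-RNA level of their library. The interval of that free-RNA level (95% Poisson, 3.66 to 14.0 CPM) overlapped those of GOBLET-PRE and GP, and not that of ENTERO-PRO (24.9 to 39.2 CPM). The part of free RNA in the St6galnac1 counts of single types was not tested. WT barcodes of 1 to 50 UMIs held 3 and 2 UMIs of it.

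**Figure D3:**
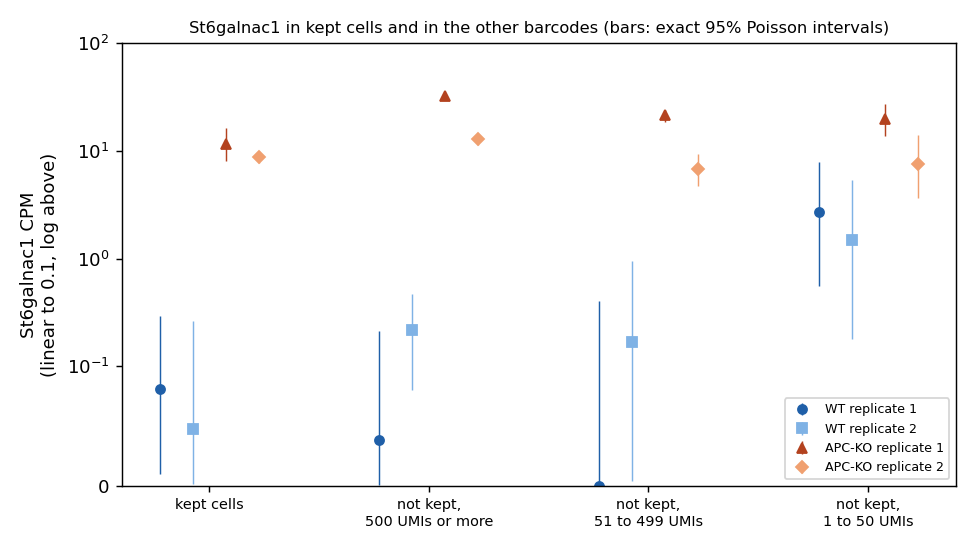
St6galnac1 (CPM; axis linear to 0.1 and logarithmic above) in kept cells and in barcodes that were not kept, by their number of UMIs, 1 point per library with its exact 95% Poisson interval. Both APC-KO libraries lie between 6.78 and 32.6 CPM in every class, and the WT libraries lie between 0 and 2.71 CPM.

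None of the other 7 members passed the threshold between the genotypes in any of the 6 fits. In the goblet lineage, where 0.0191% of 10445 genes were called, 6 of the 7 were tested. C1galt1c1 had 211 and 228 CPM in WT replicates 1 and 2 and 189 and 130 CPM in APC-KO replicates 1 and 2. The APC-KO values were lower without overlap, and APC-KO replicate 2 was the lowest. The log2 fold change was -0.38 (SE 0.21, edgeR adjusted p = 0.651). Without APC-KO replicate 1 it was -0.70 (edgeR adjusted p = 0.124), and without APC-KO replicate 2 it was -0.10.

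C1galt1 had 359 and 349 CPM in goblet-lineage cells of WT, against 304 and 264 CPM in those of APC-KO, lower without overlap, with a log2 fold change of -0.23 (SE 0.18, edgeR adjusted p = 0.724). Galnt3 had 229 and 211 CPM in WT, with 187 and 171 CPM in APC-KO, also lower without overlap (log2 fold change -0.21, SE 0.16, edgeR adjusted p = 0.724). Galnt7 had 652 and 676 CPM in WT cells beside 627 and 696 CPM in those of APC-KO (log2 fold change 0.08, SE 0.18, edgeR adjusted p = 0.917). The genotypes overlapped for Galnt7 in plain CPM, and APC-KO was higher without overlap once CPM were scaled by TMM.

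Galnt12 had 241 and 258 CPM in the WT libraries against 291 and 214 CPM in APC-KO, with the APC-KO libraries on either side of WT (log2 fold change 0.10, SE 0.20, edgeR adjusted p = 0.905). Without APC-KO replicate 1 its log2 fold change was -0.17. Gcnt3 had 305 and 321 CPM in WT, with 305 and 285 CPM in APC-KO (log2 fold change 0.0011, SE 0.16, edgeR adjusted p = 1.00). In TMM-scaled CPM, 4 of the 6 tested members did not overlap between the genotypes (Galnt3, C1galt1 and C1galt1c1 lower, Galnt7 higher in APC-KO), beside 39.1% of all genes tested (19.5% higher and 19.6% lower).

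**Figure D4:**
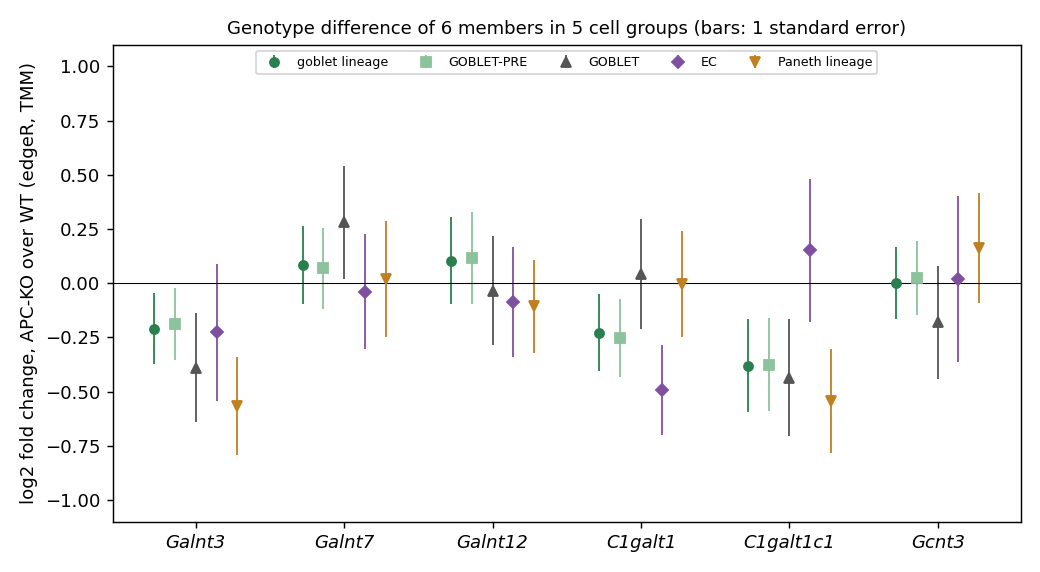
Log2 fold change of APC-KO over WT (edgeR with TMM factors; bars 1 standard error) of 6 members in 5 groups of cells. Values lie between -0.57 (Galnt3 in the Paneth lineage) and 0.28 (Galnt7 in GOBLET), and none passed the threshold.

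GOBLET and GOBLET-PRE taken apart gave the same count of 0 called among the 6 tested members, beside 0.0837% and 0.00974% of all genes. In GOBLET the genotypes did not overlap for 4 of the 6 in TMM-scaled CPM (42.6% of all genes, 20.9% higher and 21.6% lower): Galnt7 was higher and Galnt3, C1galt1c1 and Gcnt3 lower in APC-KO. In GOBLET-PRE they did not overlap for 3 of the 6 (38.5% of all genes, 19.4% higher and 19.1% lower), with Galnt3, C1galt1 and C1galt1c1 lower in APC-KO. Galnt7 in GOBLET had 440 and 374 CPM in WT cells beside 588 and 524 CPM in those of APC-KO (log2 fold change 0.28, SE 0.26, edgeR adjusted p = 0.736). C1galt1 in GOBLET had 212 and 210 CPM in the WT libraries against 284 and 215 CPM in APC-KO, higher in plain CPM, and overlapped after TMM scaling. Plain CPM shifted the median gene by 0.16 on the log2 scale in GOBLET and by -0.11 in GOBLET-PRE relative to TMM, and by 0.52 in the Paneth lineage.

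C1galt1 was also compared in EC, where it was high. It had 271 and 261 CPM in WT EC and 209 and 162 CPM in APC-KO EC, lower without overlap (log2 fold change -0.49, SE 0.21, edgeR adjusted p = 0.570). Without APC-KO replicate 1, which had 45 EC cells, the value was -0.68 (edgeR adjusted p = 0.0405) in a fit that called 405 of 9390 genes (4.31%), and the lone APC-KO library was then assumed to vary like the WT ones. No gene of 8690 was called in EC (0%) by edgeR, with 729 at an unadjusted p under 0.05, and DESeq2 called 13. In TMM-scaled CPM Galnt12 and C1galt1 did not overlap, 2 of 6 and both lower, beside 37.9% of all genes (18.5% higher and 19.4% lower). C1galt1c1 in EC had 24.8 and 32.1 CPM in WT, with 22.0 and 33.0 CPM in APC-KO (log2 fold change 0.15, SE 0.33, and -0.27 without APC-KO replicate 2). All of these levels were below the free-RNA level of their library.

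The difference of the genotype effects between goblet lineage and EC was tested as an interaction. It passed for none of the 6 tested members and for 0.114% of 10489 genes. C1galt1c1 had the largest value in size among the 6, -0.74 (SE 0.35, edgeR adjusted p = 0.779). Without APC-KO replicate 2, whose EC sum is the larger of the pair, the sign turned, to 0.22. The EC levels of C1galt1c1 in this comparison were below its free-RNA level in every library.

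In the Paneth lineage, where 0.663% of 8599 genes were called, Galnt3 had a log2 fold change of -0.57 (SE 0.22, edgeR adjusted p = 0.267) and C1galt1c1 one of -0.54 (SE 0.24, edgeR adjusted p = 0.328). In TMM-scaled CPM, Galnt3 had 137 and 115 in WT and 77.9 and 88.4 in APC-KO. C1galt1c1 had 91.6 and 78.7 in WT and 77.9 and 52.2 in APC-KO. Both were lower without overlap on that scale, as was Galnt12, 3 of 6 beside 42.3% of all genes (20.6% higher and 21.7% lower). In plain CPM Galnt3 and C1galt1c1 overlapped and Galnt12 was higher in APC-KO, as were Galnt7 and Gcnt3, beside 51.2% of all genes without overlap and 48.5% higher. APC-KO replicate 1 had 27 cells here, and PANETH-PRE cells made up 602 of the 876 cells of APC-KO replicate 2, against 122 of 228 and 98 of 298 in WT replicates 1 and 2. Goblet markers summed to 25020 to 46308 CPM in the WT Paneth lineage and to 58977 to 75903 CPM in that of APC-KO, and enterocyte markers to 178 to 246 against 489 to 1097 CPM. Paneth markers summed to 418545 to 467709 CPM in WT and 163097 to 322728 CPM in APC-KO. The part of this makeup and of these markers in the values was not tested.

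Shares of goblet-lineage cells with a UMI were compared with and without thinning, as depth differed between the libraries. C1galt1c1 was found in 61.3% and 65.5% of WT and in 77.4% and 39.8% of APC-KO cells. Over kept cells of all types, the median cell held 8370 UMIs in APC-KO replicate 1, the deepest, and 3973 UMIs in APC-KO replicate 2. Thinned to 2000 UMIs, the shares were 34.9%, 34.4%, 31.6% and 21.4% (exact two-sided permutation test, p = 0.333, the smallest that 2 libraries against 2 allow). Galnt3 was found in 37.4% and 34.8% of thinned WT cells and 30.1% and 27.9% of thinned APC-KO cells, and C1galt1 in 50.1% and 47.9% against 47.8% and 39.2%, each with the same exact p. EC, which should make little mucin, had a thinned C1galt1c1 share of 3.97% and 8.53% in WT, and of Gcnt3 6.23% and 4.65%.

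Of 108 other genes listed for the pathway, 106 were matched by symbol, and none of those tested was called in any of the 6 fits. In the goblet lineage the median log2 fold change over all genes tested was 0.0034. Among the other polypeptide GalNAc transferases 7 of 16 were tested, with a median of -0.08 and 1 positive. Galnt6, the most abundant of them in the WT goblet lineage, had 289 and 323 CPM in WT cells beside 242 and 206 CPM in those of APC-KO (edgeR adjusted p = 0.620). Galnt1, Galnt5, Galnt4 and Galnt10 followed, with mean WT levels from 167 down to 99.3 CPM. The other core and extension enzymes had 13 of 19 tested, a median of 0.15 and 7 positive. The most abundant was B4galnt2, which makes the Sda antigen, with 109 and 121 CPM in the WT libraries against 102 and 109 CPM in APC-KO. It was followed by B3gnt7, B3gnt3, B4galt6 and B4galt1.

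The sialic acid genes are the ones nearest to St6galnac1 in function, and none of the 10 tested of 19 moved with it past the threshold. Nans, the sialic acid synthase, had 255 and 260 CPM in goblet-lineage cells of WT, against 228 and 196 CPM in those of APC-KO. Cmas, which activates sialic acid, had 201 and 220 against 197 and 170 CPM, and its Golgi transporter Slc35a1 had 74.1 and 85.2 against 82.1 and 58.8 CPM. St3gal6 had 141 and 161 CPM in WT, with 88.1 and 102 CPM in APC-KO, lower without overlap, with a log2 fold change of -0.57 (SE 0.15, edgeR adjusted p = 0.531). St3gal4 had 34.7 and 48.7 against 31.7 and 31.2 CPM. The median of the 10 was -0.11, with 4 positive.

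Fucosylation and sulfation genes had 14 of 19 tested, a median of -0.19 and 5 positive. Gmds, the first enzyme of GDP-fucose synthesis, had 557 and 573 CPM in WT cells beside 475 and 422 CPM in those of APC-KO, and Papss1, which makes the sulfate donor, had 124 and 158 against 95.7 and 87.1 CPM (edgeR adjusted p = 0.578). Slc26a2, a sulfate transporter, Tsta3 and Fut8 had mean WT levels of 438, 339 and 248 CPM. All 13 nucleotide sugar supply genes were tested, with a median of -0.23 and 2 positive. Gfpt1, the first enzyme of hexosamine synthesis, had 656 and 630 against 544 and 627 CPM, and Uap1, which makes UDP-GlcNAc and UDP-GalNAc, had 205 and 270 against 175 and 140 CPM. Slc35a3 and Ugp2 had mean WT levels of 133 and 103 CPM.

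The mucins and mucus proteins that carry or accompany these glycans had 16 of 22 tested, a median of 0.05 and 9 positive. Muc2 was not among the 5 most abundant genes of its list and is named for its role, with 9879 and 9433 CPM in goblet-lineage cells of WT, against 9361 and 9997 CPM in those of APC-KO. Zg16, a mucus lectin, had 75696 and 101694 against 65829 and 73175 CPM. Tff3, a trefoil peptide, had 49752 and 30298 against 58887 and 59732 CPM, and Fcgbp had 27339 and 29099 against 26745 and 34176 CPM. Agr2 had 18609 and 20806 against 15959 and 9343 CPM, and Spink4 had 25337 and 12425 against 26899 and 35445 CPM. None of these passed the threshold.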

How the data were processed

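Droplet 3' RNA libraries of sorted cells, 2 per genotype, were analysed. The submitters' processing notes name Cell Ranger 3.0.2, STAR and the mm10 genome build. The deposited matrices hold counts of UMIs per gene and barcode, not normalized. The deposited per-cell tables give the percent of mitochondrial UMIs (an authors' value, at most 7.00%) and each kept cell's type. Kept cells had 901 to 2999 genes. Whether doublets were removed is not given in the sources used here, and no doublet caller was run.

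Files held 54230249 to 61032126 UMIs, and median kept cells 3973 to 8370. UMIs were summed per cell type and library. Levels are CPM with exact 95% Poisson intervals, which cover counting error only. Genotypes were compared in sums of at least 20 cells per library with edgeR 4.0.16 (R 4.3.3; quasi-likelihood test, TMM, filterByExpr, Benjamini-Hochberg over all genes tested, adjusted p under 0.05). Sums were the goblet lineage, GOBLET, GOBLET-PRE, EC, the Paneth lineage, and the interaction of goblet lineage with EC, fitted with library as a block. Alternatives were DESeq2 1.42.0, its size factors, no filter, thinning to 2000 UMIs per cell, each library left out, and a replicate block. In simulated counts with a log2 change of 2, the goblet-lineage fit recovered 92.3% of changed genes over 10463 genes, the GOBLET-PRE fit 92.9% over 10268 genes and the interaction 75.4% over 10464 genes. Unchanged genes made up 4.26%, 12.5% and 4.46% of their calls. Smaller changes, such as those fitted for the members other than St6galnac1, were not simulated, so these shares do not apply to them. Python 3.11.15 was used for the sums.

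Members and gene lists were chosen with earlier results of these data known. The text names all members, from each list the 5 genes highest in WT goblet-lineage cells and any gene called, and for each member the 3 genes with the highest r among those with a mean CPM of at least 20. A listed gene that this rule names is not reported here. Gene positions are from GENCODE vM21 (GRCm38), in which 31011 of 31053 gene IDs were found.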

Additional observations from a re-analysis of the deposited data

Results flagged for a closer look

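St6galnac1 appeared in APC-KO barcodes that the deposited tables did not keep as cells, a part of the files that none of the genotype comparisons used. Its level there was 29.9 CPM in APC-KO replicate 1 (1657 UMIs) and 11.4 CPM in APC-KO replicate 2 (306 UMIs). The same barcodes of WT replicates 1 and 2 held 0.110 CPM (4 UMIs) and 0.258 CPM (9 UMIs). Both APC-KO libraries were thus above both WT libraries in these barcodes. They belong to the same libraries whose contrast St6galnac1 was chosen for, so this is a description and carries no test. Barcodes with 500 UMIs or more that were not kept held it at 32.6 and 12.8 CPM in the APC-KO libraries.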

How the results depend on the processing

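The number of genes called moved with the processing, and the count of members called other than St6galnac1 did so in 1 case (C1galt1 in EC without APC-KO replicate 1). The DESeq2 Wald test called 35 genes in the goblet lineage, 38 genes in GOBLET-PRE, 13 genes in EC, 1 gene in the interaction. No filter beyond 1 count called 11 genes in the goblet lineage, 81 genes in GOBLET, 3 genes in GOBLET-PRE, 180 genes in EC, 507 genes in the Paneth lineage, 31 genes in the interaction. Thinning to 2000 UMIs per cell called 15 genes in GOBLET-PRE, 4 genes in EC. A replicate block called 27 genes in the goblet lineage, 73 genes in GOBLET, 110 genes in GOBLET-PRE, 124 genes in the Paneth lineage. The cause was not tested. Replicate numbers are shared between the genotypes. Deviations of same-numbered libraries had correlations over genes from -0.05 to 0.0090 in the 5 fits of single groups of cells. This check rests on a single difference between replicates per genotype and cannot exclude a pairing or a shared batch. Batch was not given, and the block is kept as an alternative only. Leaving out 1 library in turn called 7 to 56 genes in the goblet lineage, 0 to 21 genes in GOBLET, 7 to 64 genes in GOBLET-PRE, 0 to 405 genes in EC, 0 to 461 genes in the Paneth lineage, 12 to 83 genes in the interaction. With the DESeq2 Wald test, log2 fold changes that turned sign were -0.077 for Gcnt3 in EC, 0.031 for Gcnt3 in the interaction. With no filter beyond 1 count, log2 fold changes that turned sign were -0.033 for Gcnt3 in the goblet lineage, -0.033 for C1galt1 in GOBLET, -0.0087 for Gcnt3 in GOBLET-PRE, -0.029 for Gcnt3 in EC, -0.011 for Galnt7 in the Paneth lineage, 0.049 for Galnt3 in the interaction. With thinning to 2000 UMIs per cell, log2 fold changes that turned sign were -0.10 for Gcnt3 in the goblet lineage, -0.068 for C1galt1 in GOBLET, -0.042 for Gcnt3 in GOBLET-PRE, -0.61 for Gcnt3 in EC, 0.17 for C1galt1 in the Paneth lineage, -0.047 for Gcnt3 in the Paneth lineage, 0.45 for Gcnt3 in the interaction. With a replicate block, log2 fold changes that turned sign were -0.00014 for Gcnt3 in the goblet lineage, 0.017 for C1galt1 in the Paneth lineage. Leaving out 1 library turned the sign of these log2 fold changes, with the ranges given: in the goblet lineage Galnt12 -0.17 to 0.34, Gcnt3 -0.083 to 0.077; in GOBLET Galnt12 -0.15 to 0.062, C1galt1 -0.081 to 0.18; in GOBLET-PRE Galnt12 -0.19 to 0.37, Gcnt3 -0.078 to 0.11; in EC Galnt3 -0.72 to 0.43, Galnt7 -0.64 to 0.19, C1galt1c1 -0.27 to 0.28, Gcnt3 -0.93 to 0.32; in the Paneth lineage Galnt7 -0.14 to 0.11, C1galt1 -0.26 to 0.20, Gcnt3 -0.070 to 0.43; in the interaction Galnt12 -0.11 to 0.65, Galnt3 -0.51 to 0.42, Galnt7 -0.043 to 0.72, C1galt1c1 -0.96 to 0.22, Gcnt3 -0.37 to 1.06. None of these was called. The share of goblet-lineage cells with a UMI (percentage points, APC-KO minus WT) ranged, with 1 library left out, from -14.6 to 15.5 for Galnt12, from -17.1 to 14.1 for Galnt3, from -1.62 to 5.63 for Galnt7, from -17.0 to 10.4 for C1galt1, from -23.6 to 14.0 for C1galt1c1, from -10.7 to 13.3 for Gcnt3. Thinned, it was -0.30 for Galnt12, -0.40 for Galnt7, -1.86 for Gcnt3, and 1.75 for St6galnac1 in place of 5.26. St6galnac1 was higher in APC-KO in every genotype fit that tested it. Depth limits B3gnt6, which passed the filter of no fit that had one and without a filter had a log2 fold change of -3.66 (SE 2.48, edgeR adjusted p = 0.754) in the goblet lineage, and the types in which APC-KO replicate 1 had under 20 cells.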

Other observations

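The WT files together held 16 UMIs of St6galnac1, of which 5 lay in barcodes of 1 to 50 UMIs. Those barcodes held 2.10% of all WT UMIs.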
